A study of Mus musculus with 9 samples.

Results

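The 9 genes described here encode zinc-finger transcription factors of the Kruppel-like family (Klf2, Klf4, Klf5, Klf6, Klf9 and Klf14) and of the early growth response family (Egr1, Egr2 and Egr3), and they are 9 of 21853 protein-coding mouse genes. They were chosen by name, and each was given a locus made of the gene body plus 50 kb on either side. Every peak overlapping a locus was taken from 8 peak lists. That gave 546 peaks of 848955, of which 412 were in the 6 replicate lists and 134 in the 2 pooled lists. A peak was called a promoter peak when it touched a promoter window, which is 1 kb either side of the start of a protein-coding transcript. Other peaks on the gene body were intragenic, and the rest were flanking.

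The libraries were made from muscle cells that had been isolated freshly from the oviducts (primary oviductal muscle cell in the labels) of WT mice aged 8 to 12 weeks, mated for pregnancy and taken on day 2 (D2). All groups shared that genotype, tissue and day. The cells were enzymatically released from the whole oviduct and plated for 4 h in medium with 12% charcoal-stripped serum. They were then kept for 2 h with 10% serum before fixation, so that cells able to attach in that time were assayed. ChIC-Seq, in which an antibody carries protein A fused to MNase to its target and the nuclease releases the bound chromatin, was performed on 50000 cells per library with antibodies against H3K27ac (n = 3) or H3K4me1 (n = 3) and with IgG as the control (n = 3). Whether the replicates came from separate animals or from pooled oviducts is not given in the sources used here, so p-values measure only the spread between these samples. Each replicate peak list was called against 1 IgG library, and the IgG libraries have no list of their own.

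Kruppel-like factors bind GC-rich boxes and CACCC boxes through C-terminal zinc fingers, and family members can activate or repress the same promoter. The EGR factors bind a GC-rich site, and their genes are immediate early genes that growth factors, stretch and serum switch on within minutes through serum response factor (SRF). In smooth muscle both families are known for switching cells between contractile and proliferative states. H3K27ac marks active promoters and enhancers, whereas H3K4me1 marks enhancers and the flanks of active promoters and is usually low at the start site itself.

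The 6 replicate lists held 93684 to 152889 peaks and were called from 40551842 to 78891920 fragments against 3110985 to 3713369 IgG fragments. They covered 3.96% to 6.29% of the genome. The deepest libraries were H3K4me1 replicates 2 and 3, with 78891920 and 64063996 fragments, whereas the other 4 had at most 42040809. H3K27ac replicate 1 alone was called against IgG replicate 1. IgG replicate 2 served H3K27ac replicate 2 and H3K4me1 replicates 1 and 2, and IgG replicate 3 served replicate 3 of both marks. Promoter peaks were present in all 6 lists at 3 of 7 smooth muscle marker genes (Acta2, Des and Smtn) and at 4 of 5 fibroblast marker genes (Col1a1, Col3a1, Dcn and Lum). That was the case for 0 of 7 epithelial, 0 of 5 endothelial and 0 of 5 blood marker genes, and for 24.3% of all protein-coding genes. Peaks of 1 mark were nevertheless found in all 3 replicates at Ptprc, a blood cell gene (H3K27ac), and at Krt8, an epithelial keratin gene (H3K4me1). Of the other muscle genes, Myh11, a defining gene of smooth muscle, had a promoter peak in no H3K27ac and 1 H3K4me1 replicate. Marker genes of muscle and of fibroblasts were thus both peaked, and the part of each cell type in the peaks described next was not tested.

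Promoter sequence was at hand for 5 of the 9 genes (RefSeq, GRCm38.p6). The bases upstream of the first start are shown 5′ to 3′ on the gene's strand because the marks at these starts are compared next. The lines give Klf6 (chr13:5861239-5861481), Klf9 (chr19:23140976-23141225), Klf2 (chr8:72318812-72319032), Klf4 (chr4:55532476-55532725, minus strand) and Egr2 (chr10:67535249-67535474). Capitals mark matches on either strand to the GC box GGGCGG or, in Klf9, to the AP-1 site TGANTCA.
Klf6: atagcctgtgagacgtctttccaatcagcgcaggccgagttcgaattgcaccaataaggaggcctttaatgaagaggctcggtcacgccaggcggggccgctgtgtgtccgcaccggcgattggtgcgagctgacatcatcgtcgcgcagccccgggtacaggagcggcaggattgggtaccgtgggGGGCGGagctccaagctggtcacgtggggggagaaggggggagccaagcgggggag
Klf9: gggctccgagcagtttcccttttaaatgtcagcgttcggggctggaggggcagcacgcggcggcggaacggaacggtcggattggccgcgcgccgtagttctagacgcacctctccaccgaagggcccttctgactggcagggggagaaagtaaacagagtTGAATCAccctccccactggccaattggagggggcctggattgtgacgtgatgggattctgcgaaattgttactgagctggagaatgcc
Klf2: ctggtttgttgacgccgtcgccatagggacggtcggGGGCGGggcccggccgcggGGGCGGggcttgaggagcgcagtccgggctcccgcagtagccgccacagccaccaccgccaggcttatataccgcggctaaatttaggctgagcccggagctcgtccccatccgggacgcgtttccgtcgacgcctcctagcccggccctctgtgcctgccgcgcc
Klf4: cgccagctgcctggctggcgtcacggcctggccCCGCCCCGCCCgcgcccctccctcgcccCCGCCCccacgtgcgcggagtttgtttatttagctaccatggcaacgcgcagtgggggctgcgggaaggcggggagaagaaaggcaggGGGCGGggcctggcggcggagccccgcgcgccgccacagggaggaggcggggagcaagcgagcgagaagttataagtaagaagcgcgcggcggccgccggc
Egr2: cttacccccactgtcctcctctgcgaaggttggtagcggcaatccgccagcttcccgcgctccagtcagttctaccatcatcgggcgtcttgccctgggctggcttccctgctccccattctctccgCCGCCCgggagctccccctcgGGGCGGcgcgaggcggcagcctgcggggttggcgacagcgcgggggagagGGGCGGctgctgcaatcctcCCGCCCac

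In these windows of 300 bases, from 250 before to 50 after a RefSeq start, GC boxes were counted 4 times each at Klf4 and Egr2, 2 times at Klf2, 1 time at Klf6 and 0 times at Klf9. At Klf4 2 of the 4 overlap each other. At least 1 GC box was held by 35.7% of the 32851 RefSeq promoter windows of this length, and 4 or more by 5.49%. The AP-1 site of Klf9 was held by 7.81% of them. No window of the first starts held a CArG box (the SRF site, in 1.63% of all windows), a CRE (TGACGTCA, 1.79%), a CACCC box (GGGTGTGG, 3.56%), an EGR site (GCGTGGGCG, 0.612%) or a TATA box (TATAAA, 13.6%). Egr2 has 4 further RefSeq windows around starts 2091 to 2455 bp downstream of the first one, and each of those held 1 CArG box. These were 2 different boxes, 2019 and 2322 bp downstream of the first start.

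To learn which of the 9 promoters carried each mark, promoter peaks were counted in the replicate lists. Of the 9 genes, 7 had an H3K27ac peak at a promoter in all 3 replicates, namely Klf2, Klf4, Klf5, Klf6, Klf9, Egr1 and Egr2, against 45.9% of all protein-coding genes. H3K4me1 was found in all 3 replicates at 3 of them (Klf2, Klf9 and Egr2), against 27.9% of all genes. The same 3 genes had both marks in all 6 lists, which 24.3% of all genes did. Without H3K4me1 replicate 3 these counts were 6 and 5. Leaving out a list loosens the call for every gene, and the shares of all genes without it were not computed. Klf14 had no promoter peak in any of the 6 lists, as did 32.8% of all genes. Egr3 had promoter peaks in 1 H3K27ac and 2 H3K4me1 replicates. Counting only peaks with an average −log10 p of at least 1.3, no member kept an H3K4me1 promoter peak in all 3 replicates, against 5.03% of all genes under that filter, and the genes with H3K27ac in all 3 went from 7 to 5, against 30.2%.

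Over the replicate lists the 26 H3K27ac promoter peaks had a median width of 2653.5 bp, whereas the 18 H3K4me1 promoter peaks had a median of 710.5 bp. Over all coding promoters the medians were 1604 bp for 39359 H3K27ac peaks and 1032 bp for 35970 H3K4me1 peaks. In the flanks there were 160 H3K27ac peaks with a median of 651 bp and 157 H3K4me1 peaks with a median of 783 bp. Inside the genes there were 22 H3K27ac peaks with a median of 725.5 bp and 29 H3K4me1 peaks with a median of 1093 bp. Of the 317 flanking peaks, 11 lay on the promoter of another protein-coding gene.

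The share of the promoter windows under peaks separated the marks at 5 genes. Every H3K27ac replicate lay above every H3K4me1 replicate at Klf2, Klf4, Klf6, Klf9 and Egr1, which was so for 26.2% of all genes. The opposite order was seen at none of the 9 and at 1.71% of all genes. The median difference (H3K27ac minus H3K4me1) was 49.4 percentage points over the 9 genes and 2.07 over all genes. At each of the 5 the exact permutation test (two-sided, n = 3 against 3) gave p = 0.1, which is the smallest this design allows, and p = 0.358 after Benjamini-Hochberg adjustment over 21853 genes. Therefore no gene in the genome could pass a threshold of 0.05. The plot of promoter shares displays the separation at these 5 genes.

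**Figure D1:**
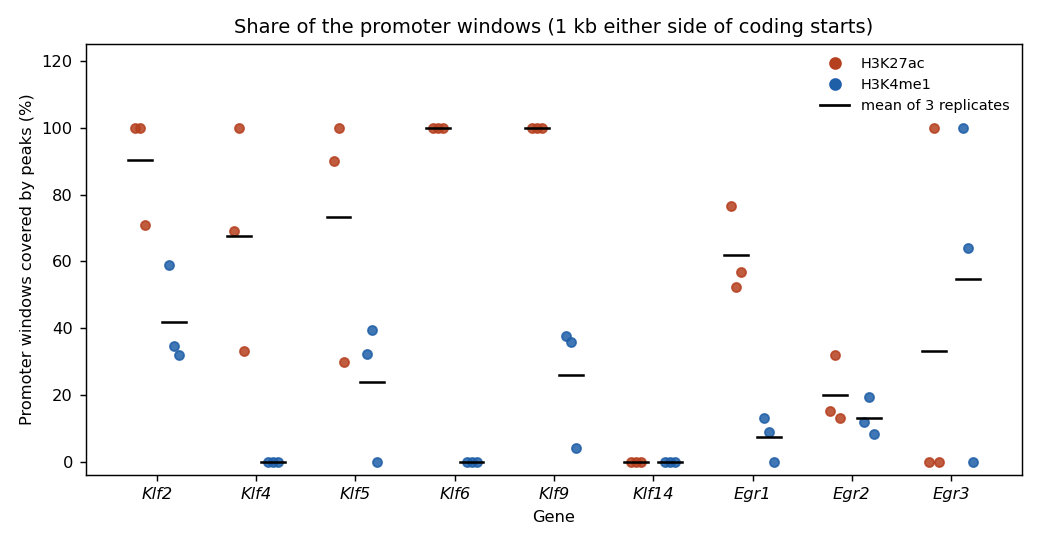
Percent of each gene's promoter windows (1 kb either side of coding starts) covered by H3K27ac (red) and H3K4me1 (blue) peaks, 1 point per replicate, with the mean of 3 as a bar. Klf6 and Klf9 sit at 100% in every H3K27ac replicate, Klf14 sits at 0 throughout, and the points of Egr3 run from 0 to 100% for both marks.

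The most heavily marked locus was that of Klf6, a factor induced by tissue injury and by TGF-beta signaling. Its gene lies at chr13:5861482-5870394 (GRCm38, plus strand). H3K27ac peaks covered 49.7%, 45.6% and 38.4% of the locus in replicates 1 to 3 (44.5% ± 5.71, SD, n = 3). H3K4me1 peaks covered 37.7%, 31.6% and 26.8% (32.0% ± 5.47, SD, n = 3). The lowest acetylation value was thus just above the highest methylation value, and the exact permutation test gave p = 0.1 (0.317 after adjustment over all genes, difference 12.5 percentage points). The shares were higher than those of 99.9% and 99.5% of all genes, respectively. With flanks of 100 kb the difference was 10.5 percentage points and the replicates of the marks overlapped (exact permutation p = 0.2).

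A single H3K27ac run lay over the Klf6 start in every replicate. It was 7811, 10541 and 8368 bp long in replicates 1 to 3 and 14673 bp in the pooled list. The replicate runs began at −2537, −2288 and −2543 bp relative to the start and ended inside the gene. These peaks had fold enrichments over local background of 2.98, 2.53 and 2.65, each above at least 99.6% of the peaks of its list. H3K4me1 left the start uncovered in all 3 replicates, with gaps of 4277, 12697 and 11131 bp around it, and none of the promoter window was covered. In the pooled H3K4me1 list the gap was 2900 bp, and 9.45% of the promoter window was covered. Downstream of the replicate gaps, H3K4me1 began 2938, 2880 and 2099 bp into the gene. It covered 51.5% ± 3.79 (SD, n = 3) of the gene body, where H3K27ac covered 90.4% ± 3.70.

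Both marks were denser upstream than downstream of Klf6 in all 3 replicates. Of the upstream 50 kb, H3K27ac covered 28.0 kb ± 3.44 and H3K4me1 22.0 kb ± 5.41 (SD, n = 3), compared with 12.4 kb ± 6.39 and 8.35 kb ± 1.53 downstream.

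Klf9, a glucocorticoid-induced factor that interacts with the progesterone receptor in the uterus, had the next most covered locus (chr19:23141226-23168134, plus strand). Its locus shares were 15.3%, 12.9% and 17.4% for H3K27ac and 13.9%, 14.2% and 11.4% for H3K4me1, and those ranges overlap. The difference was 1.99 percentage points (exact permutation p = 0.3). It was 0.909 without H3K27ac replicate 3, 1.12 without H3K4me1 replicate 3 and 3.12 without H3K27ac replicate 2, where the groups no longer overlapped. The H3K27ac run over the start was the widest such run of the 9 genes in every H3K27ac list, at 14898, 10999 and 10249 bp in the replicates, and wider than 99.96%, 99.87% and 99.86% of the peaks of those lists. Most of it lay upstream, beginning at −8689, −8335 and −7624 bp relative to the start. H3K4me1 peaks ended 248, 280 and 916 bp before the start and resumed 3305, 3736 and 1927 bp after it. They covered 37.6%, 36.0% and 4.25% of the promoter window, all of which was under H3K27ac. In contrast to Klf6, the Klf9 gene body carried slightly more H3K4me1 (29.8% ± 0.607) than H3K27ac (23.6% ± 2.73, SD, n = 3).

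**Figure D2:**
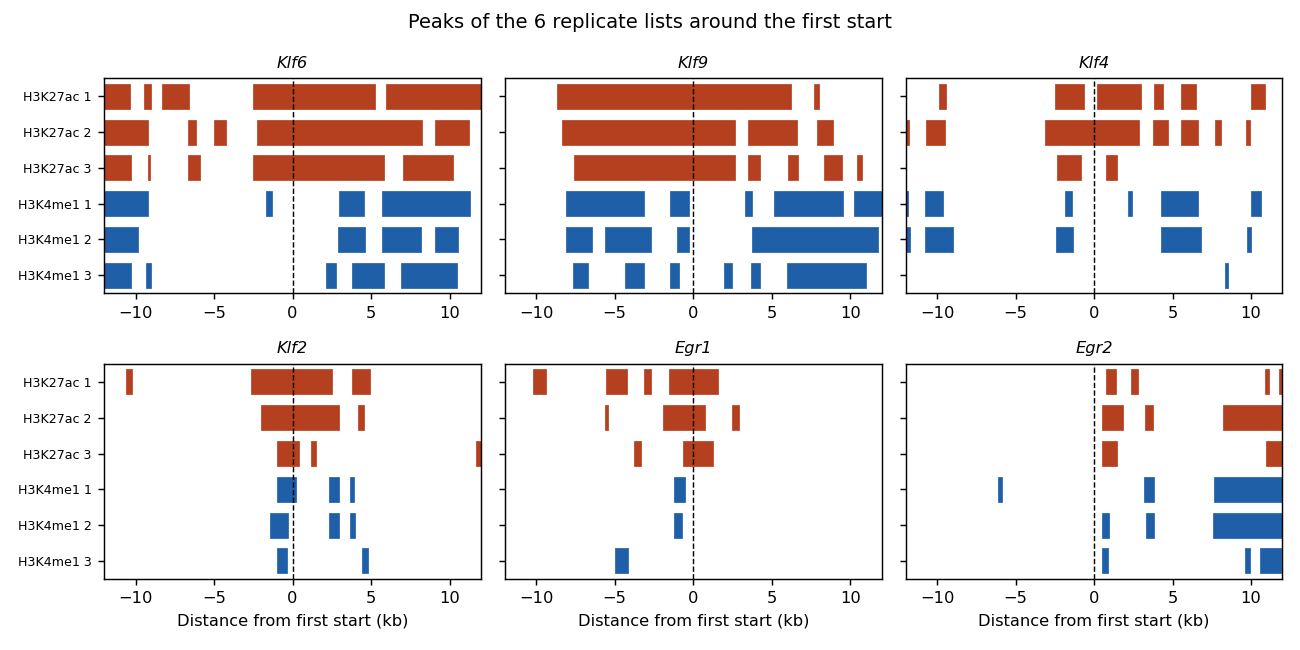
Peaks of the 6 replicate lists within 12 kb of the first start (dashed line) of 6 genes, with distance in kb along the gene's strand and 1 row per list, H3K27ac in red and H3K4me1 in blue. Red runs cross the start of Klf6, Klf9 and Egr1 in every replicate, and no blue run crosses these starts. At Egr1 no blue run lies within 12 kb downstream.

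Over all 9 genes, the first start itself was covered by H3K27ac in all 3 replicates at Klf2, Klf6, Klf9 and Egr1, which is 4 of 9 against 24.7% of all genes. H3K4me1 covered the first start in all 3 replicates at none of the 9, against 3.4% of all genes. Single H3K4me1 replicates did cover it at Klf2, Klf5 and Egr3, in each case replicate 1.

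Klf2 and Klf4 are closely related factors known from endothelial cells, where blood flow induces them. Klf4 is also a reprogramming factor that represses contractile genes in smooth muscle. At Klf2 (chr8:72319033-72321656, plus strand) H3K27ac covered 100%, 100% and 71.0% of the promoter window, and H3K4me1 covered 58.9%, 34.8% and 32.2%. The groups did not overlap at this window size, but they overlapped in windows of 3 kb (difference 42.4 percentage points, exact permutation p = 0.3). Over the locus the shares were 16.9%, 10.0% and 7.19% for H3K27ac and 5.33%, 7.37% and 8.33% for H3K4me1, so that acetylation was highest in replicate 1, the list with its own IgG library. The difference was 4.36 percentage points over all replicates, 1.59 without H3K27ac replicate 1 and 1.26 within lists that shared an IgG library.

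At Klf4 (chr4:55527143-55532466, minus strand) the promoter windows were covered to 69.2%, 100% and 33.3% by H3K27ac and to 0% by every H3K4me1 replicate. The pooled lists covered 100% and 17.5%. The strongest H3K27ac promoter peaks of Klf4 had fold enrichments of 3.13, 2.25 and 2.73, higher than 98.0% to 99.98% of the peaks of their own lists. The start itself was spanned by 1 run of 6004 bp in replicate 2, and lay in gaps of 831 and 1546 bp between runs in replicates 1 and 3. Locus shares were 9.88%, 11.2% and 4.60% for H3K27ac and 8.80%, 9.77% and 3.89% for H3K4me1, and replicate 3 was the lowest for both marks. Both genes had more covered sequence upstream than downstream in all 3 replicates of each mark.

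Klf5 promotes proliferation of smooth muscle and intestinal crypt cells, and it lies at chr14:99298691-99315036 on the plus strand. H3K27ac covered 90.1%, 100% and 30.0% of its promoter windows, whereas H3K4me1 covered 32.3%, 39.6% and 0%, so the marks overlapped. At an average −log10 p of at least 1.3, which most peaks of every replicate list do not reach, the promoter kept H3K27ac only in replicate 3 and H3K4me1 only in replicate 1. Mean locus shares were 5.07% for H3K27ac and 3.36% for H3K4me1, against all-gene medians of 4.97% and 4.45%. The replicates were at 6.92%, 6.42% and 1.86% for H3K27ac and 4.58%, 3.87% and 1.64% for H3K4me1, lowest in replicate 3 for both marks.

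Klf14 is an imprinted gene expressed from the maternal allele and known for metabolic traits (chr6:30956023-30959078, minus strand). Its locus was nearly empty. One H3K27ac peak of 301 bp in replicate 2 and 2 H3K4me1 peaks in replicate 1 were the only replicate peaks, and none lay on the gene or its promoter. The promoter of its neighbor Tsga13, 43.5 kb downstream of the Klf14 start, was also free of peaks in all 6 lists. Locus shares ranged from 0% to 0.292% for H3K27ac and from 0% to 0.627% for H3K4me1. The lists hold only regions past the caller's threshold, so a share of 0 means that no region was listed. With flanks of 100 kb every H3K27ac replicate of Klf14 lay above every H3K4me1 replicate (difference 1.24 percentage points, exact permutation p = 0.1).

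**Figure D3:**
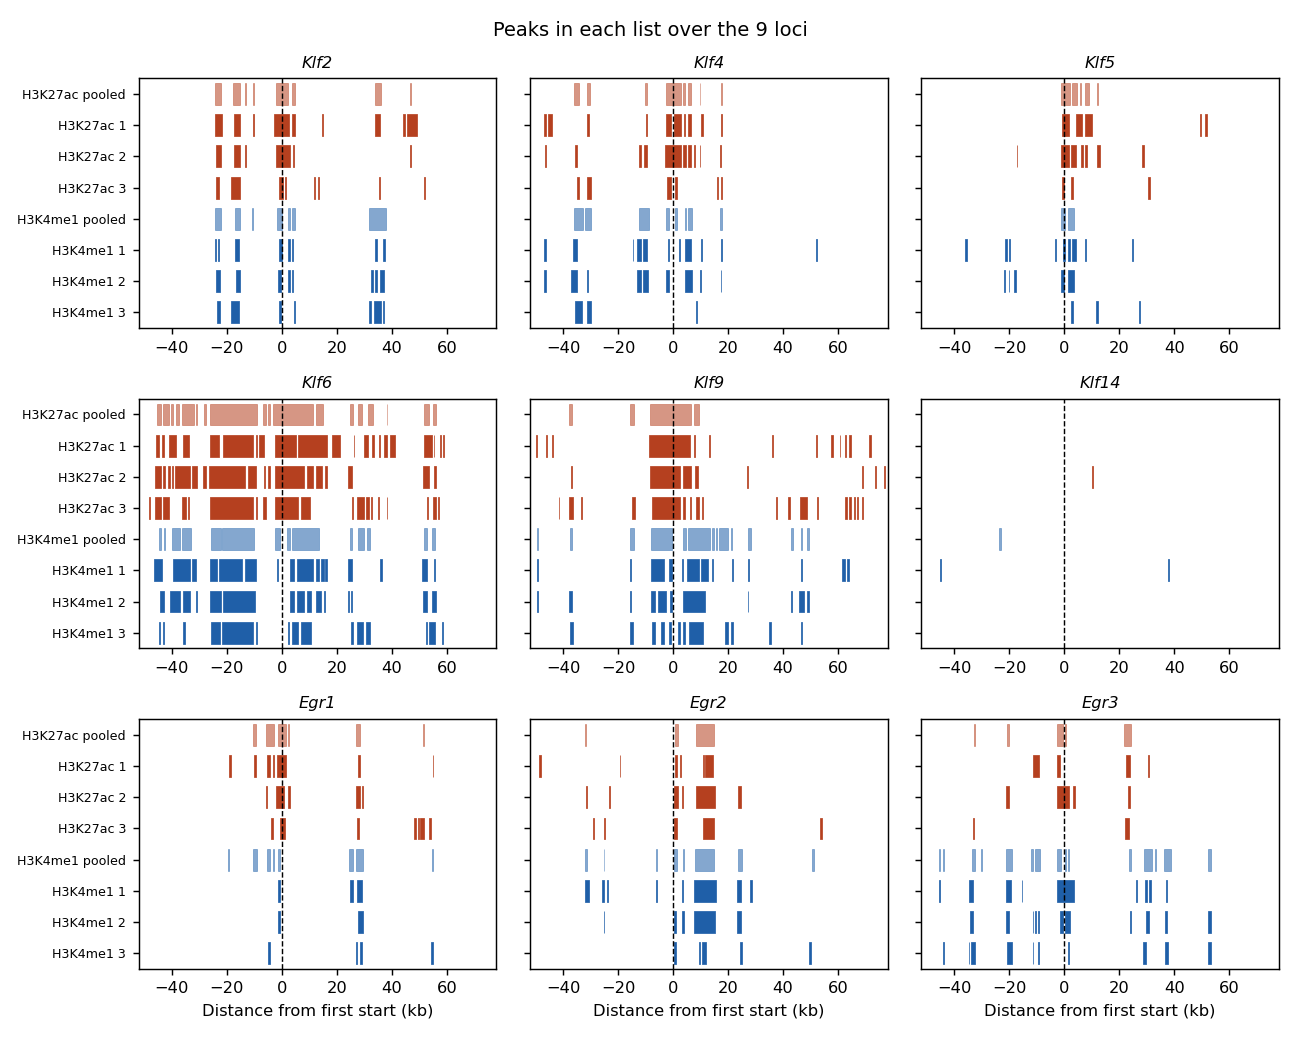
Peaks of the 8 lists over the 9 loci against distance from the first start in kb along the gene's strand, pooled lists in pale color and replicates 1 to 3 below them, H3K27ac in red and H3K4me1 in blue (the narrowest peaks are drawn as thin lines). The Klf6 locus is the most covered in every list, with a gap around the start in the H3K4me1 lists. Klf9 is filled around its start by H3K27ac, and Klf14 holds 1 peak among the H3K27ac lists.

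Egr1 couples serum, stretch and injury signals to growth factor genes, and its gene lies at chr18:34859823-34864984 on the plus strand. H3K27ac covered 76.6%, 52.5% and 56.9% of its promoter windows and H3K4me1 covered 13.2%, 9.16% and 0%. The H3K27ac run over the start measured 3151, 2723 and 1926 bp. No H3K4me1 replicate covered any of the gene body, where H3K27ac covered 26.4% ± 3.82 (SD, n = 3). Over the locus the shares were 6.99%, 4.61% and 5.67% for H3K27ac and 3.55%, 2.09% and 2.73% for H3K4me1, and again the groups did not overlap (difference 2.96 percentage points, exact permutation p = 0.1, 0.317 after adjustment). With peaks of −log10 p of at least 1.3 the locus groups overlapped (exact permutation p = 0.2), while the promoter groups stayed apart.

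Egr2, also called Krox20, directs hindbrain patterning and myelination and is an immediate early gene in many cells (chr10:67535475-67542188, plus strand). Its promoter windows span 4924 bp around 6 coding starts, and the covered shares were 15.2%, 32.0% and 13.3% for H3K27ac and 12.0%, 19.5% and 8.51% for H3K4me1. Their means (20.2% and 13.3%) lay above the all-gene medians of 15.6% and 4.47%. The first start was covered in no list. The nearest H3K27ac began 786, 480 and 516 bp downstream of it, upstream of the further starts named earlier. At Egr2 more sequence was covered downstream than upstream in all 6 lists (H3K27ac 5.16 kb ± 2.59 against 0.671 kb ± 0.140, H3K4me1 7.44 kb ± 3.67 against 1.03 kb ± 1.56). The promoter of Ado, on the opposite strand, starts 13.5 kb downstream of the Egr2 start and was peaked in 3 H3K27ac and 2 H3K4me1 replicates, and the pooled H3K27ac list held 1 run from 8194 to 14856 bp over it. Locus shares were 4.46%, 9.81% and 5.72% for H3K27ac and 12.6%, 9.65% and 3.43% for H3K4me1, which overlap.

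Egr3, which is needed for muscle spindle development, was the 1 gene where H3K4me1 covered more of the locus than H3K27ac in every replicate (chr14:70077203-70082614, plus strand). The shares were 11.8%, 8.00% and 6.89% for H3K4me1 and 4.93%, 6.88% and 2.01% for H3K27ac (difference −4.27 percentage points, exact permutation p = 0.1, 0.317 after adjustment). That separation was narrow, since the lowest H3K4me1 list covered 7.258 kb and the highest H3K27ac list 7.253 kb. It was lost with flanks of 20 kb, where the difference was 0.19, with flanks of 100 kb, where it was −4.38, with 50 kb either side of the first start (−3.89) and with −log10 p of at least 1.3 (−1.70). The locus also holds the promoter of Bin3, 22.9 kb downstream, which was peaked in 3 H3K27ac and 1 H3K4me1 replicates, and 1.687 of the 2.118 kb under H3K27ac in replicate 3 was the peak there. The promoter shares of Egr3 varied the most, at 0%, 100% and 0% for H3K27ac and 100%, 64.1% and 0% for H3K4me1.

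Set beside the genome, 2 of the 9 loci had every H3K27ac replicate above every H3K4me1 replicate (Klf6 and Egr1), against 18.3% of all genes. That count was 5 without H3K27ac replicate 3 (Klf2, Klf4 and Klf5 added) and 4 with −log10 p of at least 1.3 (Klf2, Klf4, Klf6 and Klf9). Leaving out a list loosens the rule for every gene. The share of all genes was not computed under these 2 settings, so 18.3% is no yardstick for them. The opposite order at 1 locus (Egr3) compared with 13.2% of all genes. The 9 loci together measured 980.46 kb, of which H3K27ac covered 12.9%, 12.1% and 9.42% and H3K4me1 11.1%, 9.76% and 7.35%. The median locus share of the 9 genes was 6.66% for H3K27ac and 7.49% for H3K4me1. In both marks Klf6 was far above the other 8 genes, whereas Klf14 was below them.

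**Figure D4:**
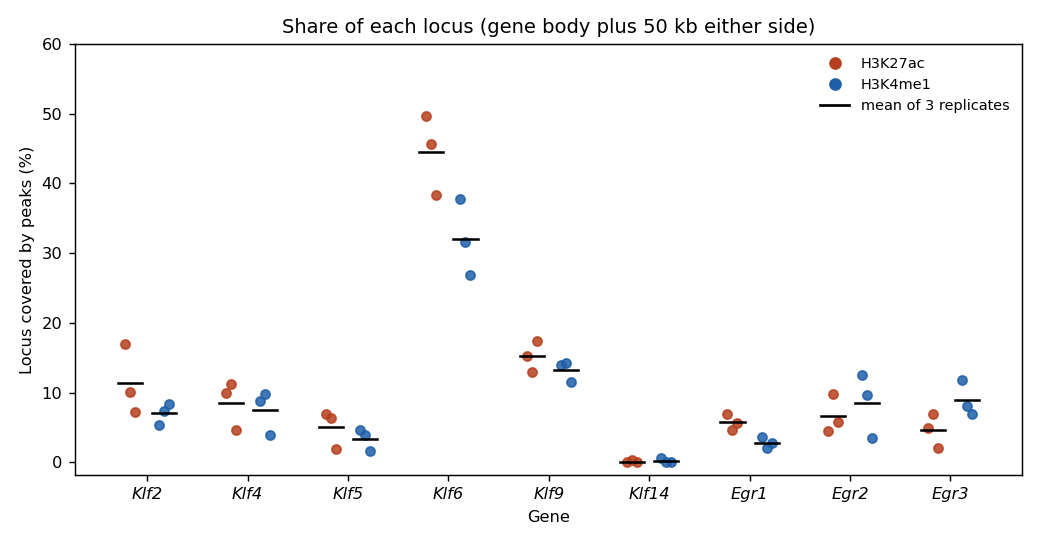
Percent of each locus (gene body plus 50 kb either side) covered by H3K27ac (red) and H3K4me1 (blue) peaks, 1 point per replicate, with the mean of 3 as a bar. The Klf6 points lie between 26.8% and 49.7%, and those of the other 8 genes at or below 17.4%.

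Distal regions under both marks, the usual picture of an active enhancer, were then mapped. They were defined as bases covered by at least 2 of 3 replicates of each mark and outside every coding promoter window. A region can thus be the shoulder of an H3K27ac promoter peak. Examples are Egr1 (−1221 to −1001 bp), Klf4 (−1860 to −1415 bp) and Egr3 (−1501 to −1469 bp, replicate 2). At least 1 such region was held by 8 of the 9 loci, all but Klf14, against 66.6% of all genes. In total there were 42 regions of 44498 bp, of which 22 lay upstream, 11 inside the genes and 9 downstream, and 16 were met by all 6 replicate lists.

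Klf6 held 15 of the 42 regions and 27991 bp, more double-marked sequence than 99.4% of all genes, for which the median was 770 bp. Its longest region measured 11316 bp and reached from −21604 to −10289 bp relative to the start (chr13:5839878-5851193). A region of 3760 bp lay next to it, from −25989 to −22230 bp, and 1 of 4563 bp ran from 5944 to 10506 bp downstream of the start, across the end of the gene. Those 3 regions were met by all 6 lists.

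Klf9 held 8 regions of 7604 bp, and the 5 met by all 6 lists flanked its start, from −8098 to 6620 bp relative to it. Those upstream of the start overlapped the H3K27ac run over it in every replicate. The region from −1477 to −1001 bp ended at the edge of the promoter window. Klf2 held 3 regions, of which the 2 met by all 6 lists lay upstream and measured 1139 and 1548 bp, with midpoints at −23.1 and −16.3 kb. Klf4 held 8 short regions of 2413 bp in all, and none was met by all 6 lists. Among the EGR genes, Egr1 had 1 region of 639 bp in all 6 lists, with its midpoint 28.1 kb downstream of the start. The 2 regions in the Egr2 locus, of 1590 and 260 bp, lie on either side of the Ado promoter window and border it, and in all 3 H3K27ac replicates the peaks continued over that promoter. The longer one was met by all 6 lists. Egr3 had 1 region of 33 bp, and Klf5 had 2 inside the gene. When all 3 replicates of each mark were required base by base, 19 regions remained, at 4 genes, against 46.1% of all genes. At −log10 p of at least 1.3, 7 regions remained, at 3 genes, against 30.4% of all genes.

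The central 200 bases of the longest of the 42 regions, that of Klf6, are shown (chr13:5845436-5845635, read from GRCm38.p6 on the plus strand) as an example of sequence under both marks. None of the motifs searched at the promoters was found in them.
Klf6 distal: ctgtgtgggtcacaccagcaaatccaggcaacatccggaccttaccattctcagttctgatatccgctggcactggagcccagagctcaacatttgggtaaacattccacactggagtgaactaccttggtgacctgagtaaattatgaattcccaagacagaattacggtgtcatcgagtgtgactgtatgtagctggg

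Of the 42 regions, 28 were at least 200 bp long, and the central 200 bases of 6 held a TATAAA, of 1 a CACCC box and of none an AP-1 site. The same motifs were held by 19.2%, 1.35% and 9.20% of 36145 such windows over the genome.

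**Figure D5:**
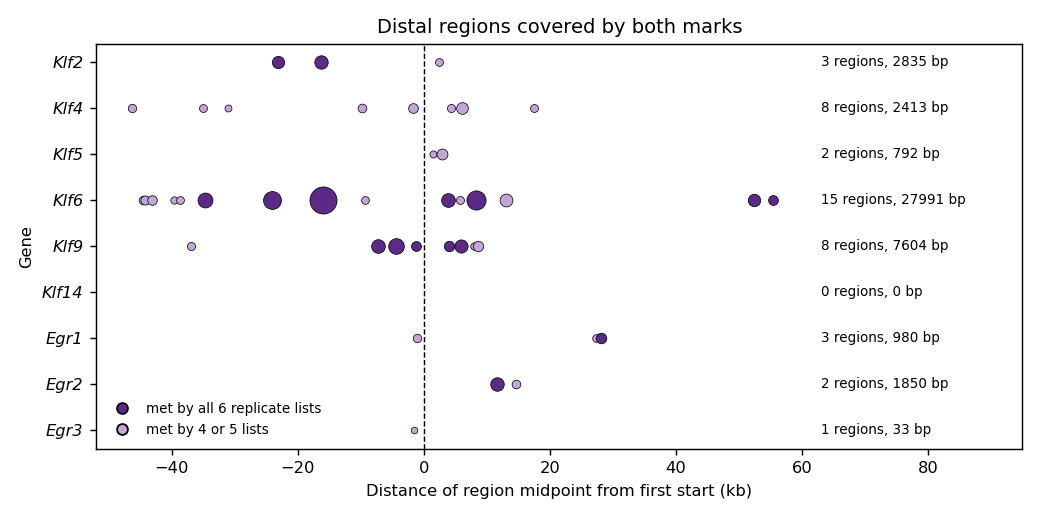
Midpoints of the 42 distal regions under both marks against distance from the first start in kb, 1 line per gene, with larger circles for longer regions (circle width grows with the square root of length). Dark circles were met by all 6 replicate lists, and 7 of those 16 belong to Klf6, 5 to Klf9, 2 to Klf2, 1 to Egr1 and 1 to the Egr2 locus, where it borders the Ado promoter window.

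Relatives and regulators of the 9 genes were examined at their promoters in the same way. Of 32 such genes, 23 had H3K27ac and 15 had H3K4me1 in all 3 replicates, 13 had both in all 6 lists and 2 had neither in any. The shares over all protein-coding genes were 45.9%, 27.9%, 24.3% and 32.8%, in the same order. Among 11 other Kruppel-like genes the 6-list set was Klf3, Klf8, Klf11, Klf12 and Klf13, and Klf17 was free of peaks. Among 9 Sp genes, whose proteins bind the same GC box, it was Sp1, Sp2 and Sp3, while Sp6 was free. Egr4, the fourth EGR gene, was peaked in 0 H3K27ac and 1 H3K4me1 replicates. Srf and the genes of its partners Elk1 and Elk4, which act on EGR promoters, were peaked in all 6 lists, as were Nab1, a corepressor of EGR proteins, and Mef2c, a target of the ERK5 pathway that induces Klf2. Elk3, another SRF partner, was peaked in 3 H3K27ac and 0 H3K4me1 replicates.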

How the data were processed

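The study deposited MACS peak lists for 3 H3K27ac and 3 H3K4me1 replicates and 1 list per mark on pooled replicates. Per the labels, reads were handled with cutadapt and Bowtie2 on GRCm38.p5. Per the file headers, the authors called broad peaks from paired-end fragments with MACS 2.2.7.1 against IgG, at p cutoffs of 0.05 (strong) and 0.1 (weak), and scaled the larger library down to the smaller, so that the replicate lists rest on the smaller IgG depth. The deposited pileup is a coverage signal, the deposited fold enrichment is a ratio to local background, and the authors' p-values are given as −log10. The q-value column was not used. These values were used only to rank or filter peaks within a list. How samples were filtered beyond this is not given in the sources used here.

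Lists were joined to GENCODE mouse release M21 (GRCm38) with Python 3.11.15, numpy 2.4.6 and pandas 2.3.3, and 0 peaks passed a chromosome end. The covered share of each locus and of the promoter windows was computed per list for 21853 genes. Marks were compared with an exact two-sided permutation test over 20 assignments, with Benjamini-Hochberg adjustment over all genes. Interval and test code was tested on simulated data. The 9 genes are all described. Related genes and neighbors were named where peaked in all 6 lists or in none, apart from Ado, Bin3, Egr4, Elk3 and the marker genes Myh11, Ptprc and Krt8, which were named after their values were seen. The members and lists were chosen with earlier results of these data known. The motif search in distal regions was added after the data were seen. Alternatives were stricter peak filters, other windows and flanks, other start sets, each replicate left out, pairing by number and lists sharing an IgG library.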

Additional observations from a re-analysis of the deposited data

How the results depend on the processing

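In all, 399 values were recomputed, of which 234 were single-gene differences judged by sign alone, and 13 of those turned in sign. Of the others, 37 counts moved by over 1.5 times or medians by over 1 SD between replicates, an SD that for the locus (2.39) exceeds the median difference itself (1.70). The 5 genes with promoter H3K27ac above H3K4me1 in all replicates numbered 5 to 6 when single replicates were left out, and their median difference of the 9 genes ranged from 43.5 to 58.1 percentage points. For the locus, that median ranged from 0.774 to 3.01, and it was 4.16 with flanks of 20 kb. The loci with H3K27ac above numbered 2 to 5 when single replicates were left out (5 without H3K27ac replicate 3) and 4 with −log10 p of at least 1.3. Lists sharing an IgG library were compared by a looser rule, since H3K27ac replicate 1 has no such partner. H3K27ac only had to be higher on average within IgG replicate 2 and within IgG replicate 3. By that rule there were 4 loci, and 7 promoters instead of 5 (Klf5 and Egr2 added). Shares of all genes were not computed for these recomputed counts. The locus with H3K4me1 above became 0 with −log10 p of at least 1.3, flanks of 20 or 100 kb and 50 kb either side of the first start.

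Deviations of same-numbered lists correlated at −0.09, 0.32 and 0.47 over the loci, for replicates 1 to 3. The lists of replicate 2 and those of replicate 3 also share an IgG library, so pairing by number cannot be told apart from a shared IgG library. The 3 pairs of lists sharing an IgG library correlated at 0.35, 0.32 and 0.47 and the others at −0.50 to 0.07. Compared as pairs (replicate block), 4 loci and 7 promoters had H3K27ac above in all 3 pairs, and the smallest exact p was 0.25. This rule is looser than the unpaired one, and the share of all genes that meet it was not computed.

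H3K4me1 in all 3 replicates, 3 promoters as listed, became 0 with −log10 p of at least 1.3, with windows of 250 bp and with 50% of the window covered, 6 with windows of 3 kb and 5 with starts of all transcripts. It ranged from 3 to 6 when single replicates were left out (6 without H3K4me1 replicate 3). All 6 lists, 3 promoters, became 0, 0 and 0 under the first 3 of these and 5 with windows of 3 kb, and ranged from 3 to 5 (5 without H3K4me1 replicate 3). H3K27ac in all 3 replicates went from 7 to 5 promoters with −log10 p of at least 1.3 and with windows of 250 bp. With 50% of the window covered it fell to 4, and 2 promoters had neither mark. Of these settings, shares of all genes were computed only for single marks with −log10 p of at least 1.3.

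The 42 distal regions (44.5 kb, 8 genes) became 7 (21.3 kb, 3 genes) with −log10 p of at least 1.3, 26 with flanks of 20 kb, 82 (94.8 kb) with flanks of 100 kb, 19 (19.5 kb, 4 genes) with all 3 replicates of each mark and 77.3 kb with the pooled lists. With single replicates left out, 24 to 38 regions (26.6 to 37.9 kb, 6 to 8 genes) remained, fewer by construction because both remaining replicates of that mark were then required. They were 24 without H3K27ac replicate 2, 25 (27.8 kb) without H3K4me1 replicate 1 and 26 (26.6 kb) without H3K4me1 replicate 2.

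Some differences turned in sign. Over the locus they were Klf5 (−0.013) and Egr2 (1.52) with −log10 p of at least 1.3, Klf14 (0.23) and Egr3 (0.19) with flanks of 20 kb, Klf14 (1.24) with flanks of 100 kb, where the loci with H3K27ac above were Klf14 and Egr1, and Egr2 (0.49) within an IgG library. With single replicates left out, Klf4 ranged from −0.73 to 3.05, Klf14 from −0.22 to 0.10 and Egr2 from −4.45 to 0.12. At promoters they were Klf5 (−0.76) with −log10 p of at least 1.3 and Egr3 (8.98 within an IgG library, −54.7 to 1.302 with single replicates left out). The cause was not tested. A filter at 5 times the genome mean coverage left 37 distal regions (43.0 kb) and changed no count of genes. The replicate lists were scaled to at most 3713369 IgG fragments. Depth may limit what could be listed, which was not tested.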
